A study of Mus musculus with 12 samples.

Results

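The VPS10p domain receptors are a family of 5 genes in the mouse, *Sorl1*, *Sort1*, *Sorcs1*, *Sorcs2* and *Sorcs3*, and were taken here by gene symbol as the whole family. *Sorl1* encodes LR11, also called SorLA, and is the gene removed in the Lr11-/- mice. Of the 55681 probes on the array 27235 could be named, through RefSeq, and the rest were not searched for these genes. The 5 genes have 8 of the named probes, of which 6 were among the 32121 probes that could be tested. One-colour Agilent arrays, on which a spot is brighter the more of its transcript is bound, were hybridised with RNA of subcutaneous white fat (scWAT) and brown fat (BAT) to ask how loss of LR11 changes gene expression in both depots.

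The 4 groups crossed genotype (WT or Lr11-/-) with depot (scWAT or BAT) and had 3 arrays each. All mice were C57Bl6/J males aged 12 weeks that ate a high-fat diet (HFD) with 60% of its calories from fat, and the WT mice were littermates of the knockouts. The knockout is of the whole body, so a difference between genotypes in a fat depot need not arise in that depot. The labels give 4 weeks of HFD in one place and HFD since weaning in another, so the length of the diet is unsettled. Each array is labelled as a separate sample, and no label says whether 1 mouse or a pool of mice stands behind it, so p-values measure only the spread between these arrays, which may be technical.

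VPS10p domain receptors are single-pass membrane proteins that carry cargo between the Golgi apparatus, the endosomes and the cell surface, and all share a propeller-shaped domain first described in the yeast sorting receptor Vps10p. Most of them bind propeptides, neurotrophins or lipoprotein-related ligands, and several can be shed from the cell surface by metalloproteases. In fat, sortilin (the product of *Sort1*) takes part in forming the vesicles that hold the glucose transporter GLUT4, and LR11 binds lipoprotein lipase. LR11 differs from the other 4 receptors in that it also carries the ligand-binding repeats of the LDL receptor family.

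Levels are log2 intensities from which the 75th percentile of the same array was subtracted, so that a spot at the percentile has the value 0 and each unit step is a doubling of brightness. Each probe has its own efficiency, so levels are compared between arrays and never between probes. A spot counts as detected where the scanner software called it well above background, and between 32377 and 37002 spots were detected per array, with 0 saturated. The arrays came in 2 series, as the sample titles show. The first series holds replicate 1 of each group and the second holds replicates 2 and 3. By the file headers the arrays lay on 3 slides. Slide 1 held the scWAT arrays of the first series, slide 3 its BAT arrays and slide 2 the whole second series. Depot and slide thus cannot be told apart within the first series. Replicate numbers are names only and pair nothing. Differences were tested with limma in 1 fit over the 12 arrays, and a probe passed where its p, adjusted by Benjamini-Hochberg over the 32121 tested probes, was under 0.05.

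The tissue labels were checked against cell type markers before the receptors were examined. All 7 adipocyte markers were detected on all 12 arrays, but their mean log2 level ran from 3.11 to 7.07 in WT scWAT (7.07, 3.11 and 5.52 in replicates 1, 2 and 3) and only from 5.86 to 6.85 over the other 3 groups. The mean of 7 brown adipocyte markers was between 4.97 and 6.27 in BAT. The WT scWAT arrays gave -1.51, -3.21 and 1.65 for this list, and the Lr11-/- scWAT arrays 1.84, 5.72 and 5.70. The mean of 9 skeletal muscle markers was 8.19 in WT scWAT replicate 3 and 8.21 in Lr11-/- scWAT replicate 1, and between 5.14 and 6.25 in WT BAT replicates 1 and 3 and Lr11-/- BAT replicate 1. On the other 7 arrays it was between -4.41 and -3.38. Epithelial markers averaged 1.69 in Lr11-/- scWAT replicate 1 and -1.91 in WT scWAT replicate 3, against -4.78 to -3.51 elsewhere. The mean of 7 B lymphocyte markers, of which between 2 and 6 were detected per array, separated the genotypes. It was -3.57 to -3.22 in WT scWAT and -3.61 to -3.50 in WT BAT, above the -4.29 to -3.99 of Lr11-/- scWAT and the -4.36 to -3.78 of Lr11-/- BAT, while 0 of the 4 markers that could be tested passed between genotypes in either depot in limma. Of these 4 an unadjusted p under 0.05 was found for 3 in scWAT and 2 in BAT, against 27.6% and 2.12% of all tested probes. The median log2 differences of the 4 were -1.29 and -0.90. The mean of 6 macrophage markers separated the WT depots, at 2.08 to 3.83 in scWAT and 0.85 to 1.02 in BAT. In limma 4 of these 6 markers passed as lower in BAT, where 24.8% of all tested probes passed in either direction. The WT scWAT arrays thus stand apart from each other, and the results that rest on them are given with and without single arrays.

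**Figure D1:**
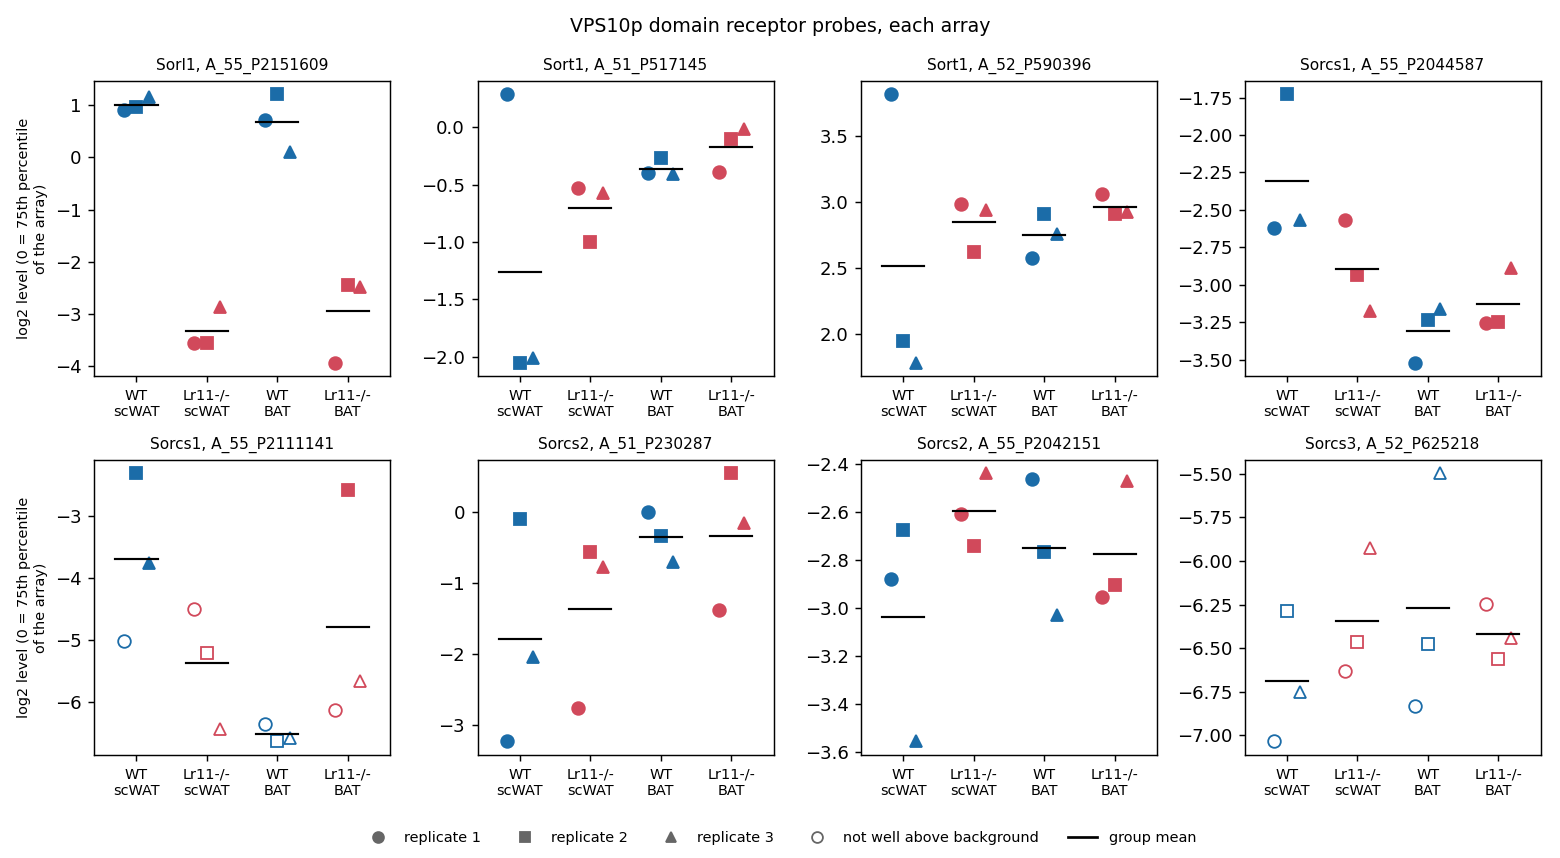
Log2 levels (0 is the 75th percentile of the array) of the 8 probes for VPS10p domain receptors on each of the 12 arrays. Circles, squares and triangles are replicates 1, 2 and 3, blue is WT and red is Lr11-/-, open symbols are spots not well above background and black lines are group means. *Sorl1* separates the genotypes in both depots, and the *Sorcs3* probe is open on all 12 arrays.

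*Sorl1* has 1 probe among those named, A_55_P2151609, which is assigned to the transcript NM_011436. In WT scWAT its log2 levels were 0.91, 0.96 and 1.15 in replicates 1, 2 and 3. In Lr11-/- scWAT they were -3.57, -3.56 and -2.87. WT BAT had 0.71, 1.21 and 0.11 and Lr11-/- BAT had -3.93, -2.45 and -2.48. All 6 knockout arrays lay below all 6 WT arrays, so the probe followed the genotype labels in both depots. The B lymphocyte marker means divided the arrays in the same way, and their part in the *Sorl1* values was not tested.

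The *Sorl1* level in Lr11-/- was 4.93% of the WT level in scWAT, with a 95% interval of 2.60% to 9.35%, and the log2 difference was -4.34 (SE 0.42, n = 3 and 3, limma adjusted p = 0.0063), in a comparison in which 5.27% of all tested probes passed. In BAT it was 8.07% of WT, with an interval of 4.26% to 15.3%, and the log2 difference was -3.63 (SE 0.42, n = 3 and 3, limma adjusted p = 0.032), where 0.0187% of all tested probes passed. Taken by array series, the scWAT difference was -4.48 in the first and -4.27 in the second, and the BAT difference was -4.65 and -3.12. Both depots reached a p of 0.1 in a two-sided exact permutation test, the smallest that 3 arrays against 3 can give. The genotype difference was not detectably larger in one depot than in the other. It differed by -0.71 on the log2 scale (95% interval -2.01 to 0.59), with a limma adjusted p of 0.66. In BAT the call was lost in 11 of the 12 fits that left out 1 array, with adjusted p-values from 0.060 to 0.229, while the log2 difference stayed between -3.91 and -3.14. The exception was the fit without Lr11-/- scWAT replicate 1, which gave an adjusted p of 0.019. The BAT call was also lost when array series (limma adjusted p = 0.062) or slide (0.086) entered the fit as a block.

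The *Sorl1* probe was well above background on all 6 knockout arrays. Its intensity there was between 36.7 and 51.1 in scWAT and between 27.3 and 80.5 in BAT, where the dimmest detected spot of an array lay between 16.3 and 23.3 over the 12 arrays. In WT mice it was between 862 and 1271 in scWAT and between 426 and 1021 in BAT. The files give neither the sequence of the probe nor its place in the gene, and the deleted part of *Sorl1* is not named in the labels, so whether this signal is a leftover transcript or another source was not tested.

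RefSeq lists 2 start sites for *Sorl1*, and a single probe cannot say from which of them a transcript began. The 250 bases before each start are shown because the WT level and the residual signal could come from either, and they are of different composition. The first lies on the minus strand at chr9:42124298-42124547 and the second on the minus strand at chr9:42077214-42077463, in build GRCm38.p6. They are written 5′ to 3′ with motif matches in capitals (the GC box GGGCGG, written CCGCCC on the other strand, and the E-box CACGTG).
Sorl1 start 1: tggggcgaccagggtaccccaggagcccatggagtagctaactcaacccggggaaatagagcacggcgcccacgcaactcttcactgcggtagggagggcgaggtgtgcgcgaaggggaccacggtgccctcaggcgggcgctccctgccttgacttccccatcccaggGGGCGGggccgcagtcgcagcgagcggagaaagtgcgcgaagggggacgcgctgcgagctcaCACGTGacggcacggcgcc
Sorl1 start 2: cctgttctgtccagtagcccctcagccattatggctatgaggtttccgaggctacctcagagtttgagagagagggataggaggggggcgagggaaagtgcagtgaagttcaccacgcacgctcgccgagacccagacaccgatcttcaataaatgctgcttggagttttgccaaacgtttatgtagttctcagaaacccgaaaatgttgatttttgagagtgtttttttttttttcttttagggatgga
The first window holds 1 GC box and 1 E-box and has a GC content of 69.6% with 26 CpG dinucleotides. The second holds none of the motifs searched, with a GC content of 47.2% and 9 CpG dinucleotides, beside a median GC content of 52.4% over the 32851 windows of this length. The motifs were searched on both strands, and the other 3 were the CCAAT box, the TATA box and the cAMP response element. A GC box was found in 32.7% of all windows, an E-box in 6.02%, the letters CCAAT in 33.8%, the TATA box TATAAA in 12.4% and the response element TGACGTCA in 1.55%. These matches describe the letters only, and the arrays did not measure binding or start sites.

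Between the depots of WT mice *Sorl1* did not pass. BAT minus scWAT was -0.33 on the log2 scale (95% interval -1.26 to 0.59), with a limma adjusted p of 0.58. The WT BAT arrays, at 0.11 to 1.21, overlapped the WT scWAT arrays, at 0.91 to 1.15. In Lr11-/- mice the residual signal differed by 0.38 between the depots (95% interval -0.55 to 1.30), with a limma adjusted p of 0.80.

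*Sort1* encodes sortilin, the family member with a described role in insulin-regulated GLUT4 vesicles of adipocytes. It has 2 probes, A_52_P590396 and A_51_P517145, both assigned to NM_019972 and both detected on all 12 arrays. With probe A_52_P590396 the log2 levels in WT scWAT were 3.82, 1.95 and 1.78, and in Lr11-/- scWAT 2.99, 2.62 and 2.94. WT BAT had 2.58, 2.91 and 2.76 and Lr11-/- BAT had 3.06, 2.91 and 2.93. WT scWAT replicate 1 was the highest of the 12 arrays and the other 2 WT scWAT arrays were the lowest.

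Probe A_51_P517145 had the same highest array and the same 2 lowest. In WT scWAT its log2 levels were 0.29, -2.05 and -2.01, and Lr11-/- scWAT had -0.53, -1.002 and -0.57. They were -0.40, -0.27 and -0.41 in WT BAT and -0.39, -0.10 and -0.02 in Lr11-/- BAT. Over the 12 arrays the 2 probes correlated with a Pearson r of 0.91, which describes probes for 1 gene on shared libraries.

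With all arrays neither *Sort1* probe passed in scWAT. The difference between Lr11-/- and WT was 0.34 on the log2 scale for A_52_P590396 (95% interval -0.64 to 1.31, limma adjusted p = 0.65) and 0.56 for A_51_P517145 (95% interval -0.58 to 1.69, limma adjusted p = 0.51). The 2 array series went opposite ways. In the first series, with 1 array per group, Lr11-/- minus WT was -0.83 and -0.82 for the 2 probes, and in the second series, with 2 arrays per group, it was 0.92 and 1.24. Without WT scWAT replicate 1, *Sort1* was higher in Lr11-/- scWAT by 0.99 (limma adjusted p = 0.023) and 1.33 (limma adjusted p = 0.017), where 13.7% of all tested probes passed. In the second series alone both *Sort1* probes passed as well (limma adjusted p = 0.030 and 0.015), where 22.6% of all tested probes passed. WT scWAT replicate 1 was the array with the highest adipocyte marker mean (7.07) and had a *Lep* level of 5.86, against -1.28 to 1.55 on the other 5 scWAT arrays. WT scWAT replicates 2 and 3 had the lowest adipocyte means of the 12 arrays, 3.11 and 5.52. The part of tissue make-up and of array series in the *Sort1* values was not tested, and in whole tissue fewer cells of a type and less RNA per cell cannot be told apart.

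In BAT *Sort1* differed by 0.22 for A_52_P590396 (95% interval -0.76 to 1.19) and 0.19 for A_51_P517145 (95% interval -0.95 to 1.32) between genotypes. Neither passed in limma. The 3 Lr11-/- BAT arrays lay above the 3 WT BAT arrays for A_52_P590396, although the highest WT and the lowest Lr11-/- array were both at 2.91. Between depots of WT mice BAT was higher by 0.23 for A_52_P590396 (95% interval -0.74 to 1.21, limma adjusted p = 0.72) and by 0.90 for A_51_P517145 (95% interval -0.23 to 2.03, limma adjusted p = 0.21). This comparison shares WT scWAT with that of the genotypes. Without WT scWAT replicate 1 the depot differences were 0.88 (limma adjusted p = 0.012) and 1.67 (limma adjusted p = 0.0027), where 31.9% of all tested probes passed. In the second series alone they were 0.97 and 1.69 and both passed, where 25.3% of all tested probes passed.

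**Figure D2:**
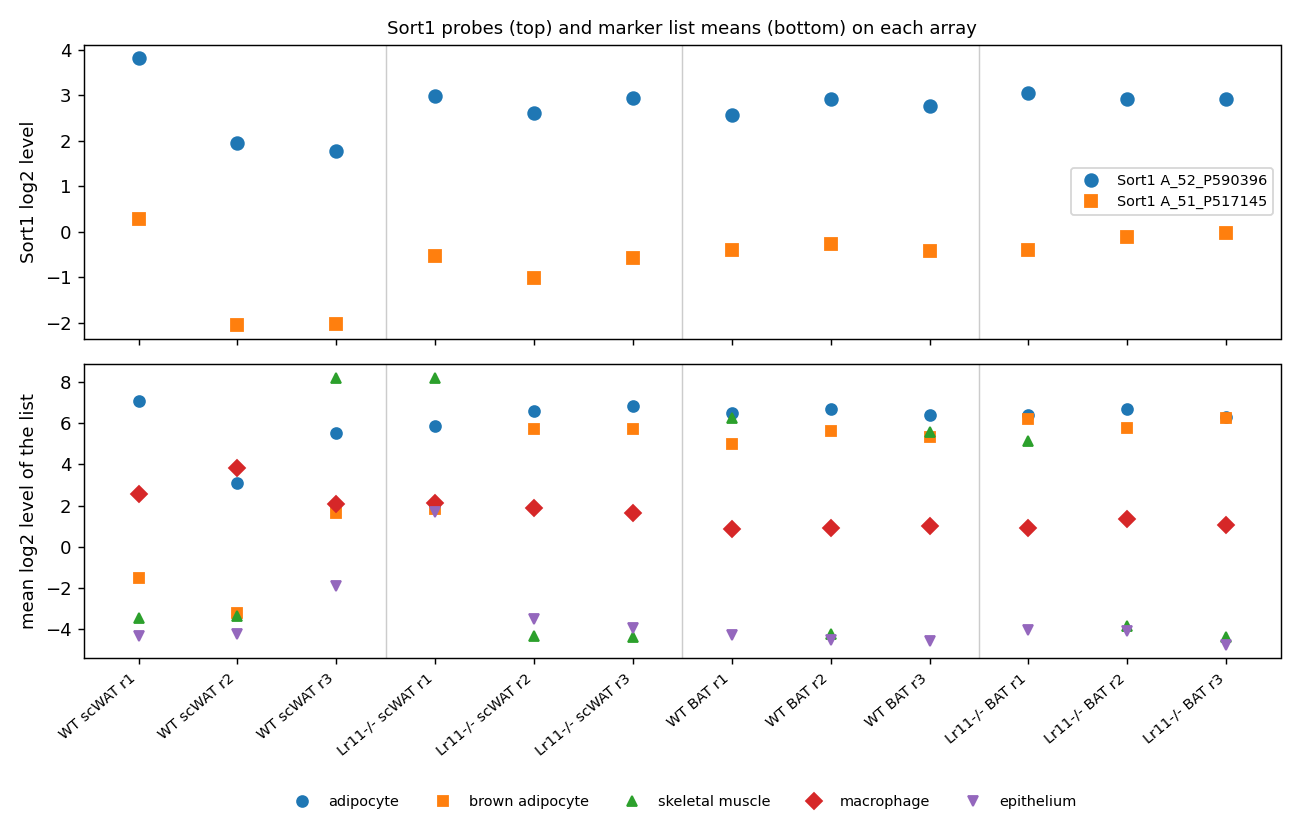
Log2 level of the 2 *Sort1* probes (top) and mean log2 level of 5 cell type marker lists (bottom) on each of the 12 arrays, with vertical lines between groups. WT scWAT replicate 1 has the highest *Sort1* and adipocyte values, replicates 2 and 3 the lowest *Sort1* values, and muscle markers are high on 5 arrays.

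The SorCS receptors are most abundant in the nervous system and are less studied in fat. *Sorcs1*, a receptor of neurons that has been tied to insulin secretion and amyloid precursor protein handling, has 2 probes for different transcripts. Probe A_55_P2044587 (NM_001252501) was detected on all 12 arrays. WT scWAT had log2 levels of -2.62, -1.73 and -2.56, and Lr11-/- scWAT had -2.57, -2.94 and -3.17. They were -3.52, -3.23 and -3.16 in WT BAT and -3.26, -3.25 and -2.89 in Lr11-/- BAT. All 3 WT BAT arrays lay below all 3 WT scWAT arrays, in a comparison in which the groups did not overlap for 40.2% of all tested probes.

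In WT mice the tested *Sorcs1* probe was lower in BAT than in scWAT, in a comparison in which 24.8% of all tested probes passed. The probe was dim, with intensities of 96.5 to 133 in WT scWAT and 41.2 to 47.0 in WT BAT. BAT minus scWAT was -1.001 on the log2 scale (SE 0.28, 95% interval -1.61 to -0.39, n = 3 and 3, limma adjusted p = 0.026). The first array series gave -0.90, between arrays on different slides, and the second -1.05. The call did not hold without WT scWAT replicate 2 (difference -0.71, adjusted p = 0.067), without WT BAT replicate 1 (-0.89, adjusted p = 0.091) or without WT BAT replicate 2 (-1.04, adjusted p = 0.071) in limma. The difference was -0.38 (limma adjusted p = 0.086) in an alternative that took the median signal, another background correction with an offset of 50, and quantile scaling. The parts of these steps were not separated. The call was lost as well with the slide as a block (-0.91, limma adjusted p = 0.092) and in the second series alone (limma adjusted p = 0.059). It was also lost with array weights (limma adjusted p = 0.068), with no filter (0.051) and with only the arrays compared in the fit (0.089). WT scWAT replicate 2, the highest of the 12 arrays for this probe, was also the array with the highest macrophage marker mean (3.83, against 2.08 and 2.56 in the other WT scWAT arrays and 0.85 to 1.02 in WT BAT) and the lowest adipocyte mean. The part of these markers in the *Sorcs1* result was not tested.

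In Lr11-/- mice *Sorcs1* BAT minus scWAT was -0.24 (95% interval -0.85 to 0.37, limma adjusted p = 0.81). Lr11-/- minus WT was -0.59 in scWAT (95% interval -1.20 to 0.03, limma adjusted p = 0.20) and 0.17 in BAT (95% interval -0.44 to 0.79). The genotype difference in scWAT minus that in BAT was -0.76 (95% interval -1.63 to 0.10, limma adjusted p = 0.50), so the depots were not shown to differ in it.

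The second *Sorcs1* probe, A_55_P2111141 (NM_021377), was detected on 3 of the 12 arrays and was not tested. These were WT scWAT replicates 2 and 3, at -2.32 and -3.77, and Lr11-/- BAT replicate 2, at -2.59. The remaining 9 arrays had levels between -6.64 and -4.51. Detected were 2 of 3 WT scWAT arrays and 0 of 3 in Lr11-/- scWAT and in WT BAT. In the dimmer group, each undetected array below the dimmest signal detected on it was raised to that signal. The mean of WT scWAT was then 1.75-fold that of Lr11-/- scWAT and 1.90-fold that of WT BAT. WT scWAT replicate 1 was not detected either and entered at its measured level, so these values are not strict lower bounds. They also leave out the spread between arrays. The 2 *Sorcs1* probes correlated with a Pearson r of 0.68 over the 12 arrays.

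*Sorcs2*, a receptor for proneurotrophins that can act with the neurotrophin receptor p75, has 2 probes for NM_030889, both detected on all 12 arrays. With probe A_51_P230287 WT scWAT had log2 levels of -3.23, -0.10 and -2.05, and Lr11-/- scWAT had -2.76, -0.56 and -0.78. WT BAT had -0.002, -0.34 and -0.70 and Lr11-/- BAT had -1.38, 0.55 and -0.15. The first-series arrays were the lowest of their group in 3 of the 4 groups, and the 4 groups overlapped.

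Probe A_55_P2042151 was steadier and kept to levels between -3.56 and -2.44. WT scWAT had -2.88, -2.68 and -3.56 with it and Lr11-/- scWAT had -2.61, -2.74 and -2.44. WT BAT had -2.46, -2.77 and -3.03 and Lr11-/- BAT had -2.95, -2.90 and -2.47. The 2 *Sorcs2* probes correlated with a Pearson r of 0.33, so they did not order the arrays alike. Neither probe passed in any comparison. In scWAT Lr11-/- minus WT was 0.42 for A_51_P230287 (95% interval -1.37 to 2.22, limma adjusted p = 0.76) and 0.44 for A_55_P2042151 (95% interval -0.15 to 1.03, limma adjusted p = 0.31). In BAT it was 0.02 (95% interval -1.78 to 1.81) and -0.02 (95% interval -0.62 to 0.57). Between the depots of WT mice A_51_P230287 was higher in BAT by 1.45 (95% interval -0.35 to 3.24, limma adjusted p = 0.21) and A_55_P2042151 by 0.29 (95% interval -0.31 to 0.88, limma adjusted p = 0.45).

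*Sorcs3*, a receptor found mainly in neurons, has 1 probe, A_52_P625218 (NM_025696). It was well above background on 0 of the 12 arrays, at log2 levels between -7.04 and -5.50. Its intensity there was between 4.15 and 8.74, so no difference between groups is given for it.

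Of the 6 tested probes 1 passed in scWAT between genotypes, that of *Sorl1*, where 5.27% of all tested probes passed and 27.6% had an unadjusted p under 0.05. In BAT 1 passed, again that of *Sorl1*, where 0.0187% of all tested probes passed and 2.12% had an unadjusted p under 0.05. Between the depots 1 passed in WT mice, that of *Sorcs1*, against 24.8% of all tested probes and 40.1% at an unadjusted p under 0.05, and 0 passed in Lr11-/- mice in limma, against 0.0405%. For the difference of the genotype effects 0 passed in limma, and 0 had an unadjusted p under 0.05, where 0.00% of all tested probes passed and 11.0% had an unadjusted p under 0.05. In Lr11-/- mice 0 of the 6 had an unadjusted p under 0.05 between depots, against 9.0% of all tested probes. Groups did not overlap for 1 of the 6 probes between genotypes in scWAT, against 20.4% of all tested probes, and for 2 of 6 in BAT, against 12.0%. Between depots they did not overlap for 1 of 6 in WT mice, against 40.2%, and for 1 of 6 in Lr11-/- mice, against 23.2%. The 5 probes of the receptors other than LR11 had genotype differences between -0.59 and 0.56 in scWAT and between -0.02 and 0.22 in BAT. Their 95% intervals all included 0. The widest, of the *Sorcs2* probe A_51_P230287, reached from -1.37 to 2.22 in scWAT and from -1.78 to 1.81 in BAT. The narrowest, of the *Sorcs2* probe A_55_P2042151, reached from -0.15 to 1.03 and from -0.62 to 0.57. With 3 arrays per group, changes within the interval of a probe were not excluded for it.

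**Figure D3:**
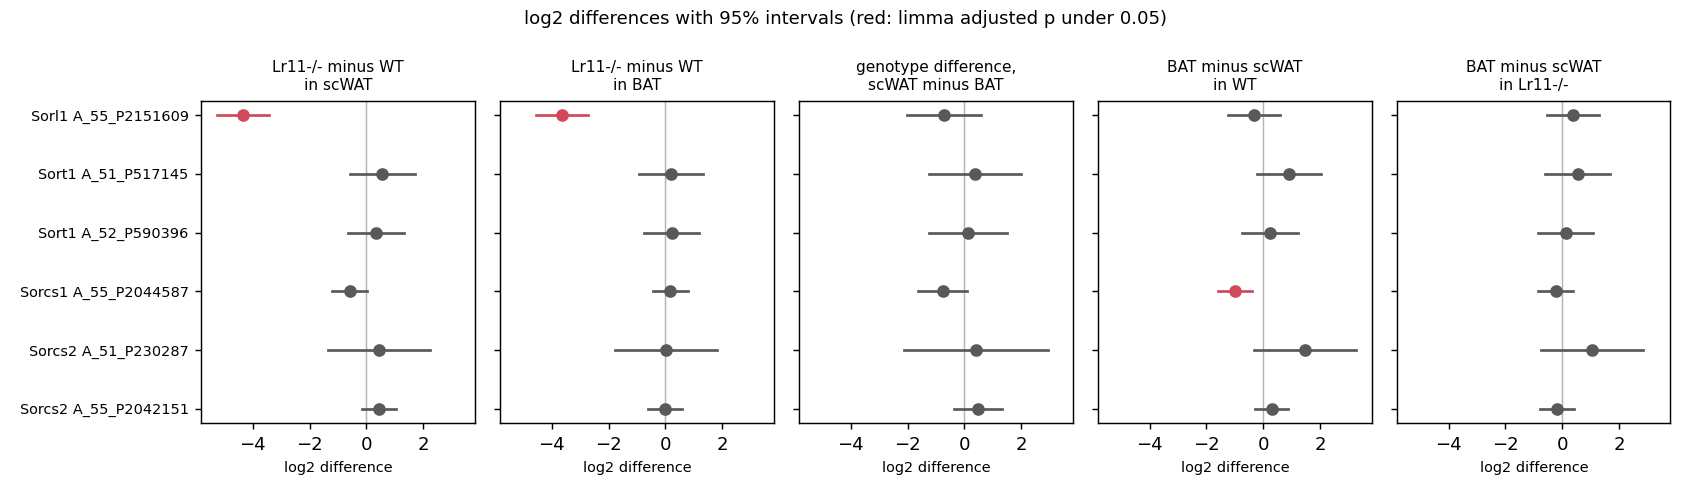
Log2 differences (points) with 95% intervals (lines) of the 6 tested probes in 5 comparisons, in red where the limma adjusted p was under 0.05. *Sorl1* passed between genotypes in both depots and *Sorcs1* between depots of WT mice, and the other intervals include 0.

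**Figure D4:**
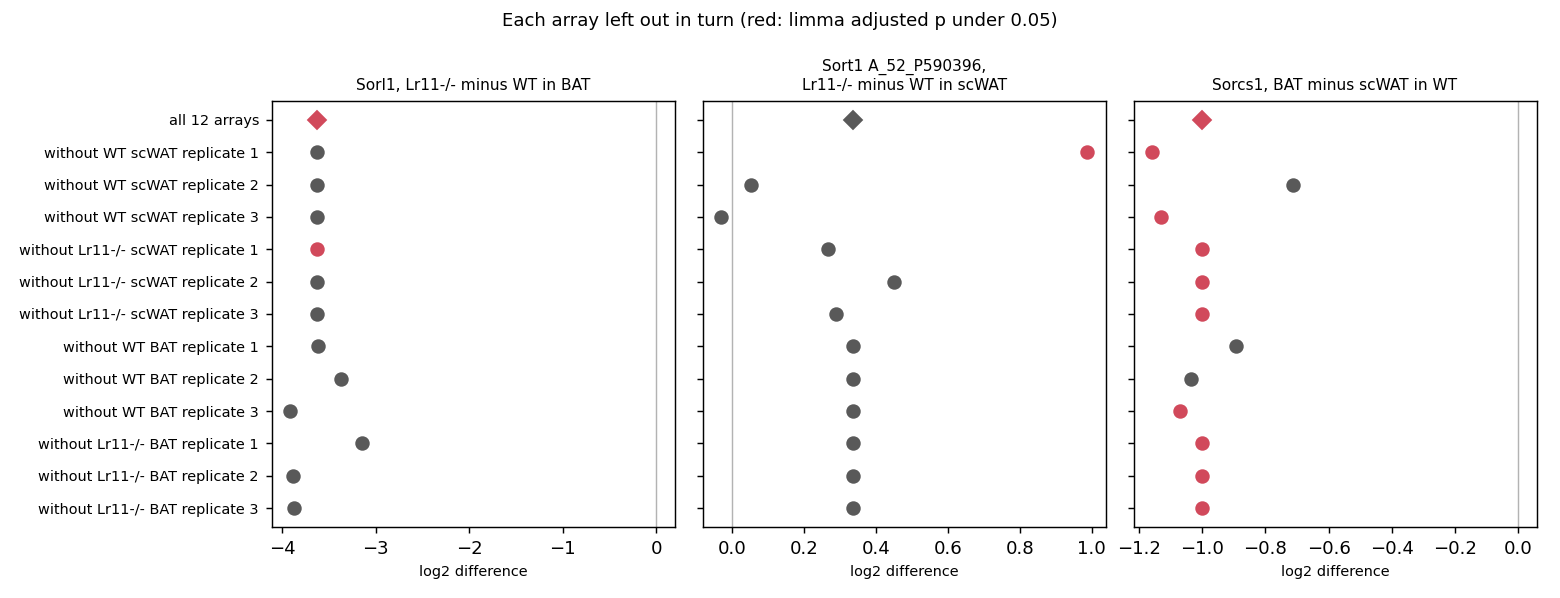
Log2 difference of *Sorl1* in BAT, of *Sort1* in scWAT and of *Sorcs1* between WT depots with all 12 arrays (diamonds) and with each array left out in turn (circles), in red where the limma adjusted p was under 0.05. *Sort1* lay between -0.03 and 0.45 except without WT scWAT replicate 1, where it was 0.99, and *Sorl1* in BAT stayed between -3.91 and -3.14.

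The partners of the receptors were examined in 5 lists. Sorting machinery comprised 20 genes, among them the retromer subunits, sorting nexins and clathrin adaptors that carry these receptors between endosomes and Golgi, and all 20 were tested. In scWAT 0 of 20 passed between genotypes in limma, with 2 at an unadjusted p under 0.05, and the median log2 difference was -0.07 beside 0.04 over all tested probes. In BAT 0 of 20 passed and 0 had an unadjusted p under 0.05. Between WT depots 1 rose and 1 fell in BAT. *Ap1m1*, a subunit of the adaptor complex AP-1, had log2 levels of 3.91, 4.10 and 3.89 in WT BAT and 2.62, 2.87 and 2.90 in WT scWAT, a difference of 1.17 (SE 0.22, limma adjusted p = 0.0068). *Snx5*, a sorting nexin, had 2.02, 2.44 and 2.63 in WT BAT and 3.01, 3.71 and 3.10 in WT scWAT, a difference of -0.91 (SE 0.24, limma adjusted p = 0.022). Of the 12 fits that left out 1 array the call of *Ap1m1* held in 12 and that of *Snx5* in 9. Such fits do not take the slide into account. With the slide as a block 3993 of all tested probes passed between WT depots in limma, against 7970 without it. Calls of single list genes with that block are not given. As for every gene below that was lower in WT BAT than in WT scWAT, the macrophage marker mean was lower there too, and its part was not tested. Beside *Ap1m1* and the genes below that were higher in WT BAT, 5 of 7 brown adipocyte markers passed as higher there in limma, against 24.8% of all tested probes in either direction. The part of these markers was not tested either.

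The list of enzymes that shed or cleave these receptors and the amyloid precursor protein held 12 genes, of which 11 were tested. It includes further subunits of gamma-secretase and *Timp3*, an inhibitor of metalloproteases. Between genotypes 0 of 11 passed in scWAT in limma, with 3 at an unadjusted p under 0.05, and 0 of 11 in BAT, with 0 at an unadjusted p under 0.05. Between WT depots *Psen2*, a catalytic subunit of gamma-secretase, was lower in BAT, with BAT minus scWAT at -1.39 (SE 0.37, limma adjusted p = 0.023) and *Adam10*, a metalloprotease that sheds membrane proteins, was lower as well, at -1.13 (SE 0.34, limma adjusted p = 0.034). *Psenen*, another gamma-secretase subunit, was higher in BAT by 0.68 (SE 0.22, limma adjusted p = 0.042). With 1 array left out the call held in 8 of the 12 fits for *Psen2*, in 5 for *Adam10* and in 3 for *Psenen*. In WT scWAT *Psen2* spread from 2.17 to 4.02 and *Adam10* from 1.91 to 3.33, with replicate 3 the lowest for both. In WT BAT they kept to 1.67 to 1.81 and 1.44 to 1.68.

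Of 23 ligands and cargo proteins 21 were tested. In scWAT 1 fell between genotypes and 0 rose, with 6 at an unadjusted p under 0.05. *Plau*, the urokinase plasminogen activator, had log2 levels of -1.74, -3.11 and -3.04 in Lr11-/- scWAT and -0.42, 0.50 and -1.20 in WT scWAT, a difference of -2.26 (SE 0.44, limma adjusted p = 0.034). The groups did not overlap, against 20.4% of all tested probes, and the call held in 3 of the 12 fits that left out 1 array. The macrophage marker mean was 2.08 to 3.83 in WT scWAT and 1.62 to 2.11 in Lr11-/- scWAT, highest on the array with the highest *Plau*. In limma 0 of 6 macrophage markers passed there. The part of these markers in the *Plau* result was not tested. In BAT 0 of 21 passed in limma and 0 had an unadjusted p under 0.05, and *Plau* differed by -0.65 there (SE 0.44) without passing. Between WT depots 2 rose and 3 fell in BAT. *Nts*, the neuropeptide neurotensin that sortilin binds, had a group mean at least 8.06-fold higher in BAT. There it was detected on all 3 arrays, at -1.13, -1.92 and -0.47. In WT scWAT it was detected on 2 of 3 arrays, at -4.44, -3.20 and -5.50. With the measured values the log2 difference was 3.21 (95% interval 2.02 to 4.41, limma adjusted p = 0.0046). The bound on *Nts* leaves out the spread between arrays. The other 3 named ligands were lower in BAT. The difference was -1.93 for *Plau* (SE 0.44, limma adjusted p = 0.012), *App*, the amyloid precursor protein that LR11 sorts, -1.51 (SE 0.32, limma adjusted p = 0.0092) and *Bdnf*, brain-derived neurotrophic factor, -1.32 (SE 0.27, limma adjusted p = 0.0089). *App* had levels of 3.94, 4.15 and 4.12 in WT BAT and 6.37, 5.40 and 4.97 in WT scWAT.

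Of 18 partner receptors 16 were tested. In scWAT 1 rose between genotypes and 0 fell, with 7 at an unadjusted p under 0.05. *Ntrk3*, the receptor for neurotrophin-3, had a group mean at least 24.9-fold higher in Lr11-/- scWAT. There it was detected on all 3 arrays, at 0.19, 2.98 and 3.53. In WT scWAT it was detected on 2 of 3 arrays, at -1.77, -6.44 and -0.99. With the measured values the log2 difference was 5.31 (95% interval 2.54 to 8.07, limma adjusted p = 0.044). The bound leaves out the spread between arrays. The dim value of *Ntrk3* was on replicate 2, the array with the lowest adipocyte and brown adipocyte means. Its call held in 3 of the 12 fits that left out 1 array. In the same comparison 3 of 7 brown adipocyte markers passed in limma as higher in Lr11-/- scWAT, against 5.27% of all tested probes in either direction. The part of these markers was not tested. With the array series as a block 0 partner receptors passed in scWAT. In BAT 0 of 16 passed in limma and 0 had an unadjusted p under 0.05. Between WT depots 3 rose and 2 fell in BAT. *Ntrk3* had a group mean at least 105-fold higher in BAT, where it was at 4.19, 4.58 and 4.19. With the measured values its log2 difference was 7.39 (95% interval 4.62 to 10.2, limma adjusted p = 0.0047). *Cntfr*, a receptor for ciliary neurotrophic factor, was higher by 3.35 (SE 0.63, limma adjusted p = 0.0065). *Ntsr1*, a neurotensin receptor detected on 1 of 3 WT scWAT arrays, had a group mean at least 3.82-fold higher in BAT. With the measured values its log2 difference was 2.51 (95% interval 1.27 to 3.76, limma adjusted p = 0.012). The depot bounds on *Ntrk3* and *Ntsr1* leave out the spread between arrays as well. *Ret*, the signalling receptor for GDNF ligands, was lower in BAT, at -2.83 (SE 0.80, limma adjusted p = 0.028) and *Erbb2*, a receptor tyrosine kinase, at -0.93 (SE 0.29, limma adjusted p = 0.042). With 1 array left out the call of *Ret* held in 9 of the 12 fits and that of *Erbb2* in 2.

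The LDL receptor family, to which LR11 also belongs by its repeats, has 9 genes in the list, of which 5 were tested. In limma 0 of 5 passed in scWAT or in BAT between genotypes, with 0 at an unadjusted p under 0.05 in either, and 0 of 5 between WT depots, with 1 at an unadjusted p under 0.05. *Lrp1*, a large endocytic receptor of fat and liver, had the smallest p in scWAT. Its log2 levels were 4.15, 2.77 and 2.97 in Lr11-/- scWAT and 3.62, 5.35 and 3.78 in WT scWAT, a difference of -0.95 (SE 0.46, limma adjusted p = 0.21). In BAT the smallest p was that of *Lrp5*, a Wnt co-receptor, with a difference of 0.45 (SE 0.33).

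Over the 4 lists of machinery, enzymes, ligands and partners 2.94% of the 68 tested genes passed in scWAT between genotypes and 22.1% passed between WT depots, beside the 5.27% and 24.8% of all tested probes given above. Between depots of Lr11-/- mice 0 genes of the 5 lists passed in limma, with 2 of the sorting machinery, 1 of the enzymes, 2 of the ligands, 1 of the partner receptors and 0 of the LDL receptor family at an unadjusted p under 0.05. For the difference of the genotype effects 0 passed as well, with 3 ligands and 2 partner receptors at an unadjusted p under 0.05 and 0 in the other 3 lists.

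**Figure D5:**
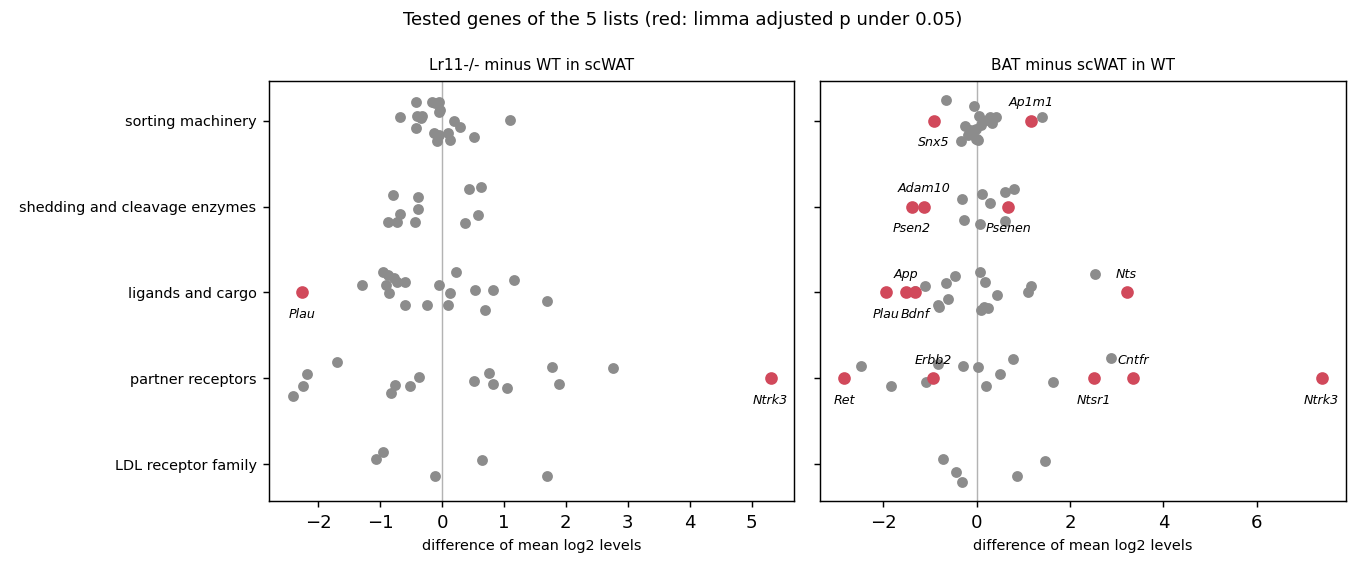
Difference of mean log2 levels of the tested genes of the 5 lists (1 ligand is not shown), Lr11-/- minus WT in scWAT (left) and BAT minus scWAT in WT (right), with genes at a limma adjusted p under 0.05 in red and named. Points are spread vertically only to keep them apart, and *Ntrk3* lies farthest to the right on both sides. *Ntrk3*, *Nts* and *Ntsr1* were not detected on every WT scWAT array, so their plotted differences include values near background. The text gives bounds on their group means, which leave out the spread between arrays.

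Genes were also ranked by how closely their levels followed those of each receptor over the 12 arrays, among 14702 named genes with a tested probe. The correlations describe shared libraries and carry no test. Closest to *Sorl1* were *Nxpe4* (Pearson r 0.94), *Ppcdc* (0.93) and *Fcmr* (0.90). *Nxpe4* was detected on all 6 WT arrays, at -1.30 to 0.04, and on 1 of 6 Lr11-/- arrays, where its levels were -6.33 to -4.38. *Ppcdc* was detected on 5 of 6 WT arrays and 0 of 6 Lr11-/- arrays. Both genes lie on the chromosome of *Sorl1*, with 78 protein-coding genes between *Sorl1* and *Nxpe4* and 184 between *Sorl1* and *Ppcdc* in the gene table of GRCm38.p6, and *Fcmr* lies on another. *Fcmr*, a receptor for IgM on lymphocytes, was at -3.30 to -2.33 on the 6 WT arrays and at -4.99 to -3.84 on the 6 Lr11-/- arrays, beside the B lymphocyte marker means that divided the genotypes too. Among the Lr11-/- arrays *Fcmr* was detected only on BAT replicate 2. Over the 6 WT arrays alone, where the genotype plays no part, the closest genes were *Omp* (0.97), *Wnt10b* (0.96) and *Ski* (0.96), all on other chromosomes. *Wnt10b* was not detected on WT BAT replicates 1 and 3.

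Closest to *Sort1* were *Ap4m1* (0.95), *Grina* (0.94) and *Zhx1* (0.93). *Ap4m1*, a subunit of the adaptor complex AP-4 that sorts cargo at the Golgi, was at 0.48, -1.27 and -1.53 in WT scWAT and between -0.76 and -0.41 over the other 9 arrays, so that WT scWAT replicate 1 was again the highest array and replicates 2 and 3 the lowest. Closest to *Sorcs1* were *Otud5* (0.97), *Dnm3os* (0.96) and *Slc9b2* (0.96). *Dnm3os*, a non-coding RNA, was at 0.08 in WT scWAT replicate 2, above the other 11 arrays, which lay between -6.00 and -2.17. It was detected only on the WT scWAT arrays and Lr11-/- scWAT replicate 1. *Slc9b2* was not detected on any WT BAT array, Lr11-/- scWAT replicate 3 or Lr11-/- BAT replicate 1. Both correlations thus rest partly on background values. Closest to *Sorcs2* by its probe A_51_P230287 were *Cldn34c1* (0.94), *Gm12253* (0.91) and *Slc11a2* (0.91), a list that holds for this probe alone, as the other *Sorcs2* probe did not order the arrays alike.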

How the data were processed

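Both depots of WT and knockout mice were measured on 12 Agilent arrays with 1 colour. The intensity values that the authors deposited came from Agilent Feature Extraction 10.10.1.1, background-subtracted and detrended within the array, on a linear scale, with no scaling between arrays. Groups came from the source labels, and replicate 1 is the array of the first series. Precision is limited by how many arrays there are and by how far a spot stands above background.

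Control spots and the 128 to 181 outlier spots per array were left out. Spots of a probe were averaged after log2, and the 75th percentile of the array (374 to 632) was subtracted. A probe was tested if all 3 arrays of any group detected it. Gene symbols came from the RefSeq accessions of the probes, of which 27235 of 28685 matched a GRCm38.p6 gene table, used for names and gene order. The file headers name build mm9 for the array design, another build than that table, so no coordinates of probes are printed. The only coordinates given are those of the *Sorl1* start windows. Promoter windows are RefSeq's in GRCm38.p6, and hold 3 of the 5 members. Limma 3.58.1 (lmFit, eBayes) in R 4.3.3 was fitted with 1 mean for each of the 4 groups over 12 arrays, and p-values were adjusted by Benjamini-Hochberg over all tested probes with a threshold of 0.05. The deposited series table held the same values as the scanner files (largest difference 0). The same steps were tested on simulated data. Figures were drawn with matplotlib 3.10.9 in Python 3.11.15.

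All probes named as 1 of the 5 receptors are reported. Probes without a match in RefSeq have no name here, and any of them that belong to these genes are missing. A list gene is read from its brightest tested probe, and the up to 3 largest rises and falls past the threshold are named per list and comparison, or the gene with the smallest p where none passed; some of the latter are given only as counts, and 1 ligand is not reported here by name. For likeness the 3 genes with the highest Pearson r are named. The receptors, the 5 lists and the 8 marker lists were chosen with earlier results of these data known. Among the marker lists not described in the report, Schwann cell and nerve markers -0.30 to 1.56 and endothelial and smooth muscle markers 1.60 to 2.85 over the 12 arrays. The alternatives were quantile, median and no scaling, 2 other filters, outlier spots kept, series or slide as a block, the second series alone, weights per array, trended and robust eBayes, fewer arrays in the fit, means over probes, a threshold of 0.1 and each array left out. Normexp on the median signal with an offset of 50, followed by quantile scaling, was chosen after seeing the data.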

Additional observations from a re-analysis of the deposited data

Results flagged for a closer look

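The second *Sorcs1* probe, A_55_P2111141, which entered no test, had a log2 level of -2.59 on Lr11-/- BAT replicate 2 and was well above background there. It was not well above background on the 3 WT BAT arrays, at -6.64 to -6.35, or on the other 2 Lr11-/- BAT arrays, at -6.14 and -5.66. The tested *Sorcs1* probe was at -3.25 on the same array, between the other 2 Lr11-/- BAT arrays.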

How the results depend on the processing

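Counts of the 6 member probes past the threshold changed as follows in limma. Between genotypes in scWAT (1 probe) the count was 3 in the second series alone, 0 with only the arrays compared and 1 to 3 with each array left out, the 3 being without WT scWAT replicate 1. In BAT (1 probe) it was 0 with median scaling, no filter, a block for array series or for slide, the second series alone and only the arrays compared, and 0 to 1 with each array left out. Between WT depots (1 probe) it was 0 with normexp, no filter, the slide as a block, array weights and only the arrays compared, 2 in the second series alone and 0 to 3 with each array left out. Between Lr11-/- depots (0 probes) it was 1 with array weights, a *Sort1* probe, and 0 to 0 with each array left out.

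Among the lists, 2 ligands passed in scWAT without scaling, and 0 partner receptors passed there without scaling or with the array series as a block. With each array left out the counts between genotypes in scWAT ran from 0 to 1 for sorting machinery, 0 to 3 for enzymes, 0 to 4 for ligands, 0 to 8 for partner receptors and 0 to 0 for the LDL receptor family. Between WT depots they ran from 1 to 3, 0 to 4, 5 to 10, 3 to 6 and 0 to 1 in the same order. The counts over all 32121 tested probes moved as well with each array left out, from 3 (without Lr11-/- scWAT replicate 3) to 6371 (without Lr11-/- scWAT replicate 1) between genotypes in scWAT and from 3276 (without WT BAT replicate 2) to 10231 (without WT scWAT replicate 1) between WT depots.

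Signs turned only for differences that had not passed. For *Sort1* A_51_P517145 the difference of genotype effects was -0.00401 with array weights, and -0.0276 to 1.14 with each array left out. For *Sort1* A_52_P590396 it was -0.0744 without scaling, -0.0902 with array weights and -0.25 to 0.77 with each array left out, its genotype difference in scWAT was -0.0321 to 0.99 with each array left out, its WT depot difference was -0.0850 without scaling and -0.14 to 0.88 with each array left out, and its Lr11-/- depot difference was -0.0106 without scaling and -0.0326 with normexp. For *Sorcs2* A_51_P230287 the genotype difference was -0.30 to 1.27 in scWAT with each array left out, and in BAT -0.0391 without scaling, -0.00416 as the mean over probes and -0.42 to 0.54 with each array left out, and the difference of genotype effects was -0.31 in the second series alone and -0.31 to 1.26 with each array left out. For *Sorcs2* A_55_P2042151 the BAT genotype difference was 0.0149 with quantile scaling, 0.0269 with median scaling, 0.0728 with normexp, 0.21 in the second series alone, 0.0163 with array weights and -0.18 to 0.12 with each array left out, the WT depot difference was -0.0318 without scaling and the Lr11-/- depot difference was 0.00267 with normexp. The cause of these changes was not tested. *Sorl1* kept its direction between genotypes in every alternative run, at -4.59 to -3.14 in scWAT and -3.91 to -2.46 in BAT. No paired analysis was possible because the labels carry no replicate numbers, and the blocks used were array series and slide. Normexp on the mean signal was not run, as the files hold the median signal only.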
